A study of Mus musculus with 42 samples.

Results

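Acetylation of lysine 27 of histone H3 (H3K27ac) was compared between untreated mouse bone marrow-derived macrophages that lacked the nuclear receptor Nur77 (KO) and wild-type cells (WT), in 3 chromatin immunoprecipitation sequencing (ChIP-seq) libraries per genotype. These 6 libraries are part of a set of 42, which also holds 18 libraries for RNA polymerase II (Pol II), the H3K27ac libraries of cells given 100 ng/ml lipopolysaccharide (LPS) for 1 or 18 h, and 6 inputs. All cells were grown from marrow of male C57Bl6/J mice (6 to 12 weeks old, per the article) with medium conditioned by L929 cells. Per the article, the KO mice were made from mice with a loxP-flanked Nr4a1 gene and a Cre driven by the CMV promoter, which deletes in the whole body, and Cre was bred out afterwards; the WT mice were littermates. The genotype label of the KO libraries reads only "cre", and the exons that were removed are not given in the sources used here. The title of each library gave its genotype, antibody, time and replicate number. Nothing in the labels ties a replicate to an animal, so p-values measure the spread between these libraries, which may be technical. The regions deposited for each of the 6 libraries were merged where they overlapped, which gave 52981 regions, and the normalized tags of a library (tags per 10 M sequenced tags) were summed in each. Testing required a region in 2 or 3 of the 3 libraries of KO or of WT, which left 45295 regions. Of these, 10825 lay within 2500 bp of the start of a protein-coding gene and were called promoter regions, and 34470 were called distal. A region is named by the gene with the nearest start, whether or not that gene responds to it.

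H3K27ac is placed by the acetyltransferases p300 and CBP and is removed by histone deacetylases. It marks promoters and enhancers that are in use, and in macrophages much of the distal mark lies at elements opened by the lineage factors PU.1 and C/EBP. Nur77, the product of Nr4a1, is an orphan receptor of the NR4A family that binds DNA as a monomer at the NBRE element, and it is known for restraining inflammatory genes in macrophages. AP-1 factors are dimers of the JUN, FOS, ATF and BATF families and drive many of those genes.

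Sequences are shown for 7 of the regions described further on, chosen after their values were seen: 4 promoters, the region inside the deleted gene and 2 distal regions that fell. They are not the 7 largest changes. Capitals mark a match, on either strand, to 1 of 5 motifs: NBRE (AAAGGTCA), AP-1 (TGANTCA), the interferon-stimulated response element ISRE (GAAA, any 2 bases, and GAAA again), PU.1 (GAGGAAGT) and C/EBP (TTGCNNAA). Each motif was counted on its own, also where it overlapped another. The first 4 sequences are the 250 bases before the gene start in the RefSeq promoter table (GRCm38.p6), read along the gene: Trim5 (chr7:104288107-104288356, minus strand) and Ifi206 (chr1:173491319-173491568, minus strand) lost H3K27ac in KO, as did Cd5l (chr3:87357631-87357880, plus strand), while Ifi202b (chr1:173982845-173983094, minus strand) gained it. The last 3 are the middle 300 bases, on the plus strand of GRCm38, of regions that were lower in KO: the region inside Nr4a1 (chr15:101262443-101262742), a distal region in an intron of Atf6 (chr1:170807917-170808216) and a distal region in an intron of Ppfibp2 (chr7:107609385-107609684).
Trim5 promoter: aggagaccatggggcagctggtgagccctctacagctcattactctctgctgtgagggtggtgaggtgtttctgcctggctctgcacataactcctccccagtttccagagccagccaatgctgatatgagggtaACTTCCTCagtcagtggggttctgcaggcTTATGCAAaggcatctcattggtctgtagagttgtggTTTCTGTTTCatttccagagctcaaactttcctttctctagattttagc
Ifi206 promoter: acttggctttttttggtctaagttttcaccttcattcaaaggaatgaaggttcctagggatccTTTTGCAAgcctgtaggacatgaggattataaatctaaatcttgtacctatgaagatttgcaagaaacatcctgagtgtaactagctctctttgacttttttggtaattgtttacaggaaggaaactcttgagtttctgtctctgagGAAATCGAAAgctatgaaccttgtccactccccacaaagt
Cd5l promoter: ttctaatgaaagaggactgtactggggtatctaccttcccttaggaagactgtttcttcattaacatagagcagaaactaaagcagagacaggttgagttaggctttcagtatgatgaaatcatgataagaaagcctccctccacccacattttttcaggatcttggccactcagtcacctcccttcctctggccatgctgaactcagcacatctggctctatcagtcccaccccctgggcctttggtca
Ifi202b promoter: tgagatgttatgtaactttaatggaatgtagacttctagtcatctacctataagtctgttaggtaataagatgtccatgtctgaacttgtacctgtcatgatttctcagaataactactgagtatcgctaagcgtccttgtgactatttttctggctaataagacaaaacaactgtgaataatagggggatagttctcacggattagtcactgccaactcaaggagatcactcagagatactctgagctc
Nr4a1 internal region: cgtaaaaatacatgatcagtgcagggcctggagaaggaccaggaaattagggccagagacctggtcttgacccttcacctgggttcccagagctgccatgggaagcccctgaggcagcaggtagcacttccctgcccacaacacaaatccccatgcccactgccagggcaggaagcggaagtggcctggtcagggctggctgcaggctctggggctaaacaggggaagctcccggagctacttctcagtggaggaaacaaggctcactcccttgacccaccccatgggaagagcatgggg
Atf6 distal region: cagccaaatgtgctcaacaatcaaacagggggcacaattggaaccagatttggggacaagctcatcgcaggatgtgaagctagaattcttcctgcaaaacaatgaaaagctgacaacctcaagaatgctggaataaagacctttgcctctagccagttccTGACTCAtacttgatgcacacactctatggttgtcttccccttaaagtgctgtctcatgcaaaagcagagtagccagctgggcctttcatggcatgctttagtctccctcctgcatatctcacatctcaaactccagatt
Ppfibp2 distal region: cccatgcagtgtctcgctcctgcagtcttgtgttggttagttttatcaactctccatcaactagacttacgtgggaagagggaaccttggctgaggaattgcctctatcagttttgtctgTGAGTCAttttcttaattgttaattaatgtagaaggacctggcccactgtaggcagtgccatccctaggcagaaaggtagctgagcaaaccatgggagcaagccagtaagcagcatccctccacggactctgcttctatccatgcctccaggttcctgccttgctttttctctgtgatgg
Along the Trim5 promoter, the PU.1 match began at base 136, the C/EBP match at base 165 and the ISRE match at base 202. The Ifi206 promoter had a C/EBP match at base 64 and an ISRE match at base 211. The middles of the Atf6 and Ppfibp2 regions each held an AP-1 match, at bases 161 and 121. The sequences shown for Cd5l, Ifi202b and Nr4a1 held no match to any of the 5 motifs.

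The KO libraries were the deeper ones. They held 35.0, 38.5 and 38.8 M tags, and the WT libraries 22.7, 23.1 and 21.4 M. The fragment length estimated from the tags also differed without overlap, with 222 to 250 bp in KO and 314 to 336 bp in WT. The deposited lists held 45580, 46255 and 47939 regions in KO and 44623, 44357 and 42435 in WT, a mean difference of 2786 (exact two-sided permutation test, p = 0.1, the smallest p that 3 against 3 libraries allow). A deeper library could show weaker regions, since a window needed 4.89 to 5.43 normalized tags to pass in KO and 6.05 to 6.55 in WT. When regions under 1 common density (12.1 normalized tags per kb) were left out, the order reversed, with 38569 to 39479 regions in KO and 42029 to 42918 in WT. The share of tags in regions was 86.0% ± 0.114 (SD, n = 3) in KO and 83.6% ± 0.750 (SD, n = 3) in WT. Across the 35399 regions found in all 6 libraries, which are not independent replicates, libraries correlated at r = 0.995 within KO, 0.991 within WT and 0.982 to 0.983 between the genotypes. Depth and fragment length parted the genotypes completely, so their part in any difference cannot be told apart from that of genotype.

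**Figure D1:**
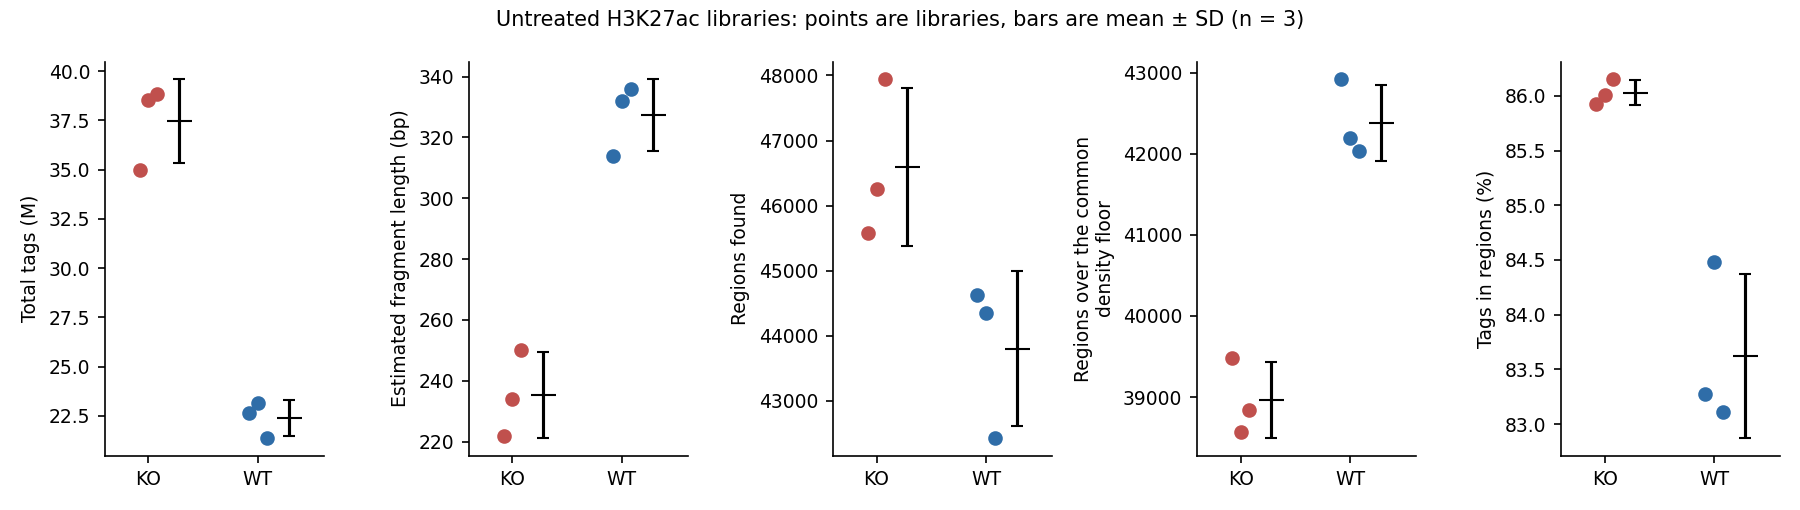
Each panel plots 1 measure of the 6 untreated H3K27ac libraries (y axis, unit in the label, axes not starting at 0) for KO and WT; points are libraries and the bars beside them mean ± SD (n = 3). KO libraries were deeper and had shorter fragments, and the number of regions was higher in KO as deposited but lower in KO over the common density floor.

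The gene that was deleted serves as a check of the labels. On GRCm38, Nr4a1 (ENSMUSG00000023034) spans chr15:101254269-101274795 on the plus strand, and its transcripts start at 101254269 (Nr4a1-202) and at 101266846 (Nr4a1-201 and Nr4a1-203). H3K27ac within 2500 bp of the upstream start was 84.4, 61.4 and 74.6 normalized tags in KO and 85.5, 68.5 and 74.4 in WT. The values overlapped, with a log2 change of -0.05 (limma adjusted p = 0.80). Between both starts, a region at chr15:101261608-101263576 held 17.3, 23.0 and 20.5 tags in KO and 61.1, 64.0 and 64.3 in WT. Every KO library lay below every WT library there, with a log2 change of -1.28 ± 0.118 (SE, limma adjusted p = 2.71e-05). The region over the downstream starts, chr15:101265972-101267856, held 26.3, 23.2 and 17.9 tags in KO and 44.8, 31.5 and 33.0 in WT (log2 change -0.51, limma adjusted p = 0.0354), which did not reach the 2-fold needed for a call. Pol II along the whole gene was 77.5, 58.9 and 60.6 tags in KO and 175, 171 and 191 in WT. A region behind the gene, chr15:101283067-101285585, was higher in KO by 0.26 on the log2 scale (limma adjusted p = 5.85e-04), below 2-fold. The H3K27ac tags inside the gene thus differed between the genotypes as the labels give them, and those at its upstream start did not separate them.

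Whether loss of Nur77 changed H3K27ac before any stimulus was asked of all regions. Of the 45295 regions tested, 1109 (2.45%) were called, at a limma adjusted p under 0.05 and a change over 2-fold on the scale of log2(normalized tags + 10), which understates changes of low values. In KO, 805 (1.78%) rose and 304 (0.671%) fell. Promoter regions were called in 89 of 10825 cases (0.822%), 61 higher and 28 lower, and distal regions in 1020 of 34470 cases (2.96%), 744 higher and 276 lower. At an adjusted p under 0.05 without the fold, 10831 regions (23.9%) passed. The KO and WT values did not overlap in 17403 regions (38.4%), and the median change over all regions was 0.07. Most differences between the genotypes were thus smaller than 2-fold.

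The called regions were mostly weak ones. The median region called higher held 18.5 normalized tags in KO and 2.06 in WT, and the median region called lower 1.88 in KO and 35.8 in WT, whereas all tested regions had medians of 45.4 and 44.4. Of the 805 regions called higher, 376 (46.7%) were found in no WT library, 191 in 1, 113 in 2 and 125 (15.5%) in all 3. Of the 304 called lower, 138 were found in no KO library, 27 in 1, 24 in 2 and 115 in all 3. A region that was not found is listed at 0, which means that it did not pass the search and not that it held no reads. Among the 35399 regions found in all 6 libraries, 240 (0.678%) were called, 125 higher and 115 lower, of which 16 and 13 were promoter regions. Their medians were 81.4 tags in KO against 25.9 in WT for those called higher, and 24.0 against 90.9 for those called lower.

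The balance of direction moved with the handling of weak regions. As deposited, 72.6% of calls were higher in KO. With the common density floor there were 549 regions higher and 729 lower (43.0% higher), with quantile normalization 398 and 413, and with a region that was not found set to the floor of its library 277 and 213. A model that held the log2 of the total tags as a covariate called 21 regions, 7 higher and 14 lower. Genotype and depth are nearly the same variable in these libraries.

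**Figure D2:**
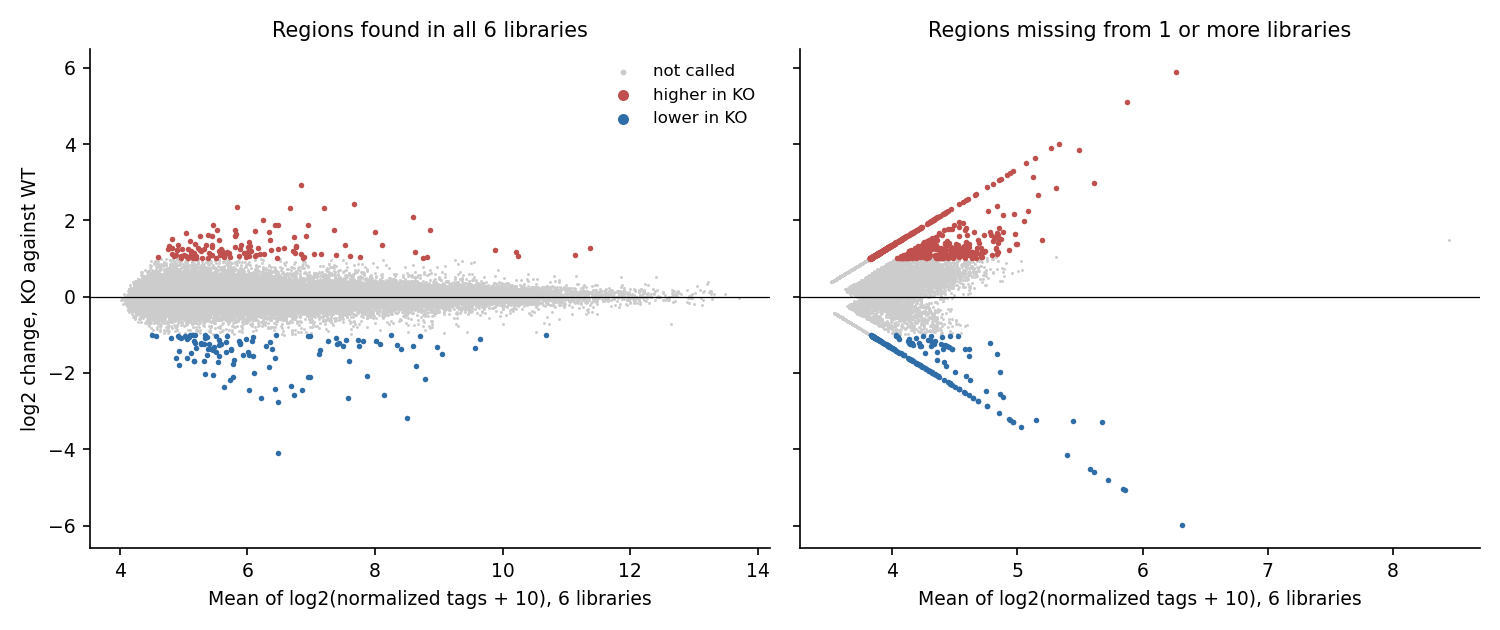
Each point is a tested region, with its mean H3K27ac level over the 6 libraries as log2(normalized tags + 10) on the x axis and the log2 change of KO against WT on the y axis; red and blue points were called higher and lower, and the x axes of the panels differ. Calls were balanced among regions found in all 6 libraries (left; 125 higher, 115 lower), whereas among regions missing from some library (right) most were higher, and the straight edges there are regions listed at 0 in 1 genotype.

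Regions found in all 3 libraries of 1 genotype and in none of the other were more often weak in KO than in WT. There were 995 of them in KO, with a median of 9.02 tags, and 192 exceeded 2 times the highest window limit of a WT library (13.1 tags). WT had 187, with a median of 14.3 tags, and 131 exceeded 2 times the highest window limit of a KO library (10.9 tags). Those above 100 tags numbered 6 in KO and 7 in WT. These tags are sums over whole regions (median width 1040 bp for KO and 1207 bp for WT). The limit holds for 1 window of 500 bp, so passing it is easier for a wider region.

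Among promoter regions found in all 6 libraries, the largest rises in KO were at Gfra2, Lrp2bp, S100a8 and B3galnt1. With log2 depth as a covariate, 14 of the 16 named regions found in all 6 libraries, promoter and distal, missed the threshold, while all 16 kept their direction and 12 kept a fitted log2 change within 1.5 times of that without it. The 4 that shrank by more included the promoter regions of Gfra2 (2.36 to 0.94) and S100a8 (1.48 to 0.54). The others were the distal regions at Lrp2bp (2.34 to 1.05) and Nos1ap (-2.75 to -1.27). Genotype and depth are nearly the same variable here, so this fit cannot separate their parts. Gfra2 encodes the coreceptor of the growth factor neurturin, and its promoter region (chr14:70889265-70895193) held 117, 116 and 126 tags in KO and 22.0, 16.4 and 9.12 in WT. The log2 change was 2.36 ± 0.162 (SE, limma adjusted p = 2.78e-06). Pol II there was 100.5, 108 and 113 tags in KO and listed at 0 in all 3 WT libraries. The region at Lrp2bp (chr8:45993422-46001449), which also covers parts of Ankrd37 and Ufsp2, held 789, 789 and 786 tags in KO and 177, 182 and 176 in WT (log2 change 2.08 ± 0.0377, SE, limma adjusted p = 4.18e-11). The spread within each genotype was small beside that gap, and Pol II rose too, with 716 to 877 tags in KO and 279 to 376 in WT. The input library of KO held 62.2 tags in this region and that of WT 6.24, and their part in the difference was not tested. It is a promoter region by the GENCODE start of Lrp2bp, and the RefSeq promoter entry (chr8:46010352-46010651) lies outside it.

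S100a8 encodes a subunit of calprotectin, a calcium-binding alarmin that is abundant in neutrophils and made by myeloid cells. Its promoter region (chr3:90667496-90670361) held 123, 133 and 123 tags in KO and 38.2, 46.5 and 33.0 in WT, with a log2 change of 1.48 ± 0.105 (SE, limma adjusted p = 3.57e-06). Pol II there was 43.0, 39.3 and 45.3 tags in KO and 15.4, 16.6 and 15.9 in WT, again without overlap. B3galnt1 encodes a glycosyltransferase that makes globoside, and its region (chr3:69596874-69600535) held 435, 432 and 433 tags in KO and 156, 168 and 163 in WT (log2 change 1.36 ± 0.0450, SE, limma adjusted p = 4.64e-09).

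The largest falls among promoter regions found in all 6 libraries were at Cd5l, Fignl2, Trim5 and Eya1. Cd5l encodes a secreted scavenger receptor protein that macrophages make under control of the liver X receptor and that protects them from apoptosis. Its region (chr3:87356478-87366510) held 65.0, 57.8 and 78.3 tags in KO and 477, 476 and 463 in WT. That was a log2 change of -2.65 ± 0.0827 (SE, limma adjusted p = 2.65e-09). Pol II over the same stretch was 7.19, 14.6 and 0 tags in KO and 508, 554 and 567 in WT, without overlap. Input held 37.6 tags there in KO and 85.3 in WT, and its part in the difference was not tested.

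Trim5 belongs to the family of tripartite-motif proteins that restrict retroviruses. Its promoter region (chr7:104286664-104288886) held 14.1, 19.9 and 15.5 tags in KO and 102, 103 and 107 in WT (log2 change -2.11 ± 0.113, SE, limma adjusted p = 3.37e-07), and Pol II was at 0 in KO throughout and at 39.1, 46.3 and 40.5 in WT. Eya1 encodes a phosphatase and transcriptional coactivator of development. Its region (chr1:14305869-14310713) held 56.9, 44.3 and 52.5 tags in KO and 250.2, 255 and 250.2 in WT. The region nearest to Fignl2, a relative of the fidgetin microtubule-severing enzymes, lies 1.86 kb from its start (chr15:101080423-101083792) and held 33.6, 39.5 and 33.7 tags in KO and 214, 226 and 223 in WT. That start is the GENCODE one, and the RefSeq promoter entry of Fignl2 (chr15:101054350-101054649) lies outside the region. The region is less than 1 Mb from Nr4a1. The log2 changes were -2.10 at Eya1 (limma adjusted p = 2e-08) and -2.34 at Fignl2 (limma adjusted p = 4.64e-09).

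Some promoter regions were found in 1 genotype only, and for these neither a fold nor a p is given. The other genotype is listed at 0 because no region was found, without spread, and the region entered the test through the genotype in which it is high. In KO the highest was at Ifi202b, a member of the interferon-inducible Ifi200 family of nucleic acid-binding proteins, with 579.7, 577 and 596 tags (chr1:173973197-173983554). Input held 268 tags in this region in KO and 61.4 in WT, and Pol II 285 to 356 tags in KO and 0 in WT. The next were Serpina12, which encodes the adipokine vaspin, with 46.6, 52.0 and 40.9 tags, and Il20rb, which encodes a receptor subunit for cytokines of the interleukin 20 family, with 33.7, 34.1 and 32.6. Pol II did not separate the genotypes past the threshold at either (limma adjusted p = 0.483 and 0.269).

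In WT the highest was at Trim12a, a neighbour and relative of Trim5, with 259.5, 293 and 259.5 tags (chr7:104313414-104316566). Ifi206, another Ifi200 gene, followed with 98.4, 80.2 and 75.1 tags (chr1:173489795-173492342), and Gm4070 with 54.1, 78.2 and 58.9 (chr7:105952778-105955337). Pol II at these 3 was listed at 0 in every KO library and was 33.5 to 111 tags in WT. The promoters of Trim12a and Trim5 are near-identical copies: lined up with a shift of 59 bases and without gaps, 241 of 241 bases of the RefSeq promoter entries were the same, with the PU.1, C/EBP and ISRE matches in the same order. How reads from such copies were divided is therefore uncertain.

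Among regions found in all 6 libraries, the largest changes were at distal regions. Those that fell most were at Fcrl1, Ank2, Nos1ap and Ppfibp2. A region in an intron of Fcrl1, which encodes an Fc receptor-like protein of B cells, held 14.9, 9.99 and 10.0 tags in KO and 374, 362 and 340.4 in WT (chr3:87399476-87403435, log2 change -4.10 ± 0.0990, SE, limma adjusted p = 3.37e-10). It lies 23.1 kb from the Fcrl1 start and less than 1 Mb from the Cd5l region. Ank2 encodes ankyrin B, which anchors membrane proteins to the cytoskeleton. A region in its intron (chr3:127314402-127323142) held 108, 109 and 117 tags in KO and 1059.6, 1119 and 1072 in WT, a log2 change of -3.17 ± 0.0444 (SE, limma adjusted p = 3.99e-12). Pol II was listed at 0 in all KO libraries at both regions, and was 74.6 to 97.0 tags at Fcrl1 and 126 to 158 at Ank2 in WT.

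The region in an intron of Nos1ap, which encodes an adaptor of neuronal nitric oxide synthase, held 32.0, 21.2 and 21.0 tags in KO and 215, 225 and 223 in WT (chr1:170572998-170578810). The region in an intron of Ppfibp2, which encodes a liprin (chr7:107607180-107611888), held 17.7, 23.2 and 17.8 tags in KO and 164, 192 and 174 in WT. The log2 changes were -2.75 and -2.66 (limma adjusted p = 3.64e-08 and 2.2e-08). After LPS, the Ppfibp2 region, whose middle is printed above, held 105 to 132 tags in KO at 1 h and 226 to 301 at 18 h, with 424 to 457 in WT over both times. Its difference was called at 1 h and missed the threshold at 18 h (limma adjusted p = 0.0587).

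The largest distal rises were at Gm47283, Ano6, Ifi202b and Lrp2bp. The region in an intron of Gm47283 on chromosome Y held 299.9, 303 and 323 tags in KO and 26.2, 39.8 and 30.2 in WT (chrY:90797124-90812865, log2 change 2.93 ± 0.104, SE, limma adjusted p = 9.7e-09). Input alone held 743 tags in this region in KO and 134 in WT, more than the H3K27ac libraries, and its part in the difference was not tested. Pol II there was 1328, 1353 and 1609.6 tags in KO and 439, 529.7 and 510.0 in WT (log2 change 1.52, limma adjusted p = 2.76e-04). Ano6 encodes a scramblase of membrane phospholipids, and a region in its intron (chr15:95821303-95830202) held 464, 464 and 460.4 tags in KO and 72.6, 89.6 and 74.4 in WT. The log2 change was 2.42 ± 0.0696 (SE, limma adjusted p = 1.38e-09), and Pol II was 105 to 129 tags in KO and 10.8 to 31.2 in WT. The region at Ifi202b, 17.0 kb from its start (chr1:173960416-173965764), held 323, 320.4 and 324 tags in KO and 58.0, 54.4 and 54.9 in WT (log2 change 2.34, limma adjusted p = 3.63e-10), and input held 114 tags there in KO and 40.4 in WT. The region 6.66 kb from the Lrp2bp start (chr8:45989293-45992646) held 212, 208 and 236 tags in KO and between 29.0 and 49.0 in WT (log2 change 2.34, limma adjusted p = 8.05e-07). Its Pol II values overlapped, since the highest WT library (87.7 tags) lay above KO libraries at 57.2 and 65.0.

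Distal regions found in 1 genotype only included several of the strongest differences. In WT, a region 33.6 kb from BC107364 held 603, 639 and 637 tags (chr3:96485951-96491180), a region in an intron of Atf6, the endoplasmic reticulum stress sensor, 331, 328 and 322 (chr1:170805451-170810682), and a region 61.4 kb from the olfactory receptor gene Olfr693 305, 350.2 and 308 (chr7:106615747-106619190). All 3 were listed at 0 in every KO library, at 1 and 18 h of LPS too. In KO, a region 159 kb from Nuf2, which encodes a kinetochore subunit, held 349, 326 and 328 tags (chr1:169367276-169372172), a region 5.61 kb from Ifi203 149, 149.6 and 156 (chr1:173948280-173950704), and another region in an intron of Ank2 143, 137 and 138 (chr3:127281373-127283667). The last lies in the same gene as the Ank2 region that fell, so neighbouring regions of 1 gene differed in opposite directions.

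Input moved with H3K27ac at many of the named regions. Of the 14 that were higher in KO, input was higher in KO at 10 and listed at 0 in both genotypes at 4. Of the 14 that were lower in KO, input was higher in WT at 9, listed at 0 in both at 4 and higher in KO at 1 (Eya1). Besides the regions given above, input was 36.9 tags in KO and 0 in WT at Ano6, 52.3 and 0 at Ifi203, 25.1 and 0 at Nuf2, 9.16 and 58.1 at the Ank2 region that fell, and 12.0 and 49.5 at Atf6. There was 1 input library per genotype at this time, and the part of input in these differences was not tested. The KO input was the larger one, with 45.3 M tags and 108461 regions against 35.1 M and 64725 in WT. The share of all tested regions with input higher in KO was not counted, so these counts have no background.

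**Figure D3:**
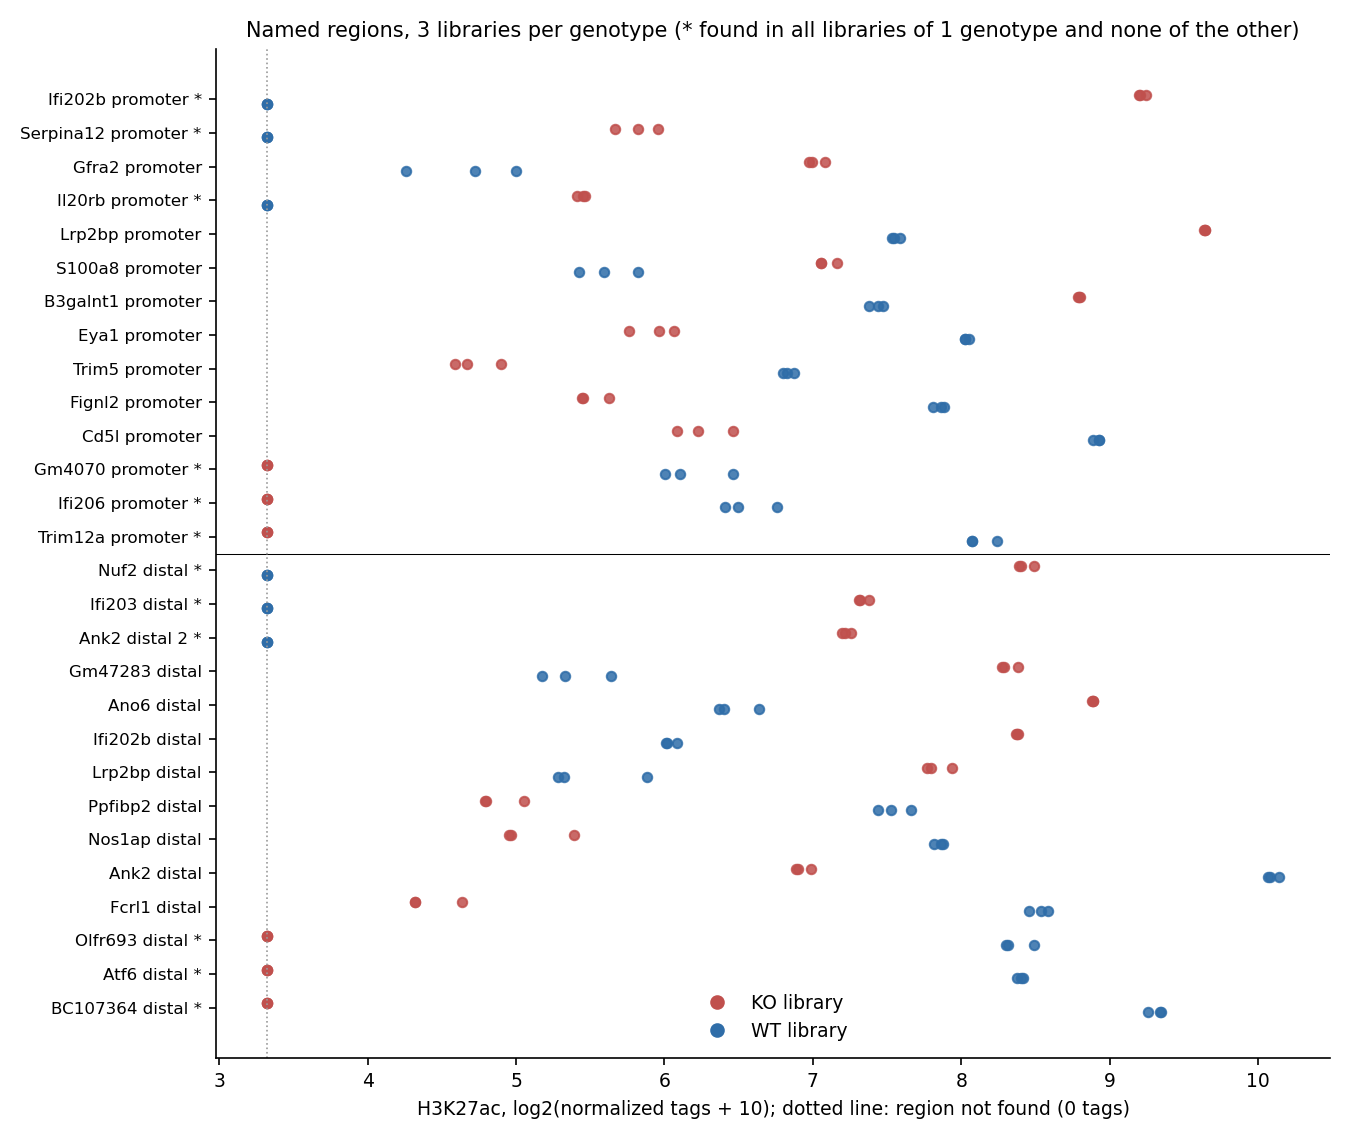
For each named region (rows; promoter regions above the line, distal below, sorted by log2 change) the H3K27ac level of each library is plotted as log2(normalized tags + 10) on the x axis, red for KO and blue for WT, 3 points each. The regions were chosen for their difference in these libraries, so the gap between the 3 KO and the 3 WT points is part of the choice, and points on the dotted line are libraries in which the region was not found.

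The called regions were unevenly spread along the genome. By chromosome, 5.61% of tested regions were called on chromosome 3, 4.56% on 1, 4.52% on 14 and 3.85% on 6, 22.2% (4 of 18 regions) on Y, and 1.32% to 2.69% on the other assembled chromosomes. Among 474 windows of 5 Mb with at least 20 tested regions, the median window held 1 call and 145 held none. The 10 windows with the most calls held 240 calls, which is 21.6% of all calls, with 2.89% of the tested regions. They were picked by their calls, so a share of calls above that of regions is part of the choice. The highest was 170 to 175 Mb of chromosome 1, where 69 of 215 regions were called, 25 higher and 44 lower. It holds the Ifi200 gene cluster, Nos1ap and Atf6. Next came 70 to 75 Mb of chromosome 14 with Gfra2 (33 of 178), 135 to 140 Mb of chromosome 6 (25 of 103) and 115 to 120 Mb of chromosome 6 (19 of 156). The windows at 125 to 130 Mb of chromosome 3, where Ank2 lies, and 115 to 120 Mb of chromosome 12 held 18 calls each, of 66 and 116 regions. The window around Nr4a1, 100 to 105 Mb of chromosome 15, held 14 of 172 (8.14%). Calls in both directions lay side by side in these windows. Whether the KO and WT mice carried the same alleles in these windows, including the Ifi200 and Trim clusters, was not tested, and differences in alleles and loss of Nur77 cannot be told apart there. The spread was uneven also among regions found in all 6 libraries, with 2.22% called on chromosome 3, 1.79% on 1 and 0.062% on 17.

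By annotation, the middles of called regions lay in exons less often than those of all tested regions, where 12.3% lay in exons, 49.7% in introns and 38.0% between genes. Among regions called higher these shares were 6.71%, 56.8% and 36.5%, and among those called lower 6.25%, 42.8% and 51.0%. Matches to the motifs were counted in the middle 1000 bp of each region. NBRE, the element of Nur77 itself, was matched in 5.24% of distal regions called higher and 5.07% of those called lower, against 5.40% of all distal regions tested. AP-1 was matched in 36.3% and 46.0% against 38.8%, and, among distal regions found in all 6 libraries, in 33.0% and 40.2% against 39.2%. PU.1 was matched in 14.9% and 16.7% against 15.6%. ISRE was matched in 12.6% and 16.7% against 17.3%, and C/EBP in 38.2% and 37.3% against 38.8%. Of the 28 promoter regions that fell, 10 (35.7%) held an ISRE match against 11.8% of all promoter regions, 15 (53.6%) a C/EBP match against 30.4% and 3 (10.7%) an NBRE match against 3.70%. Among the 61 that rose the shares were 9.84%, 36.1% and 4.92%. Several of the promoters that fell are copies of 1 family, such as Trim5 and Trim12a. In the RefSeq promoter table, 3.44% of 32851 promoters held an ISRE match, 10.8% a C/EBP match, 3.20% a PU.1 match, 7.81% an AP-1 match and 1.51% an NBRE match. A match describes the letters and does not show binding.

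The same regions were then read in libraries that the calls had not used. Pol II of the untreated cells was testable in 540 of the 1109 called regions, and 457 of these changed in the direction of H3K27ac. Pol II was called in the same direction in 127 regions and in the opposite direction in 0. Over all 30565 regions tested for Pol II, 0.867% were called. The opposite direction held 1 region with median centring, with quantile normalization, without Pol II KO replicate 3 and without Pol II WT replicate 1. Among regions called higher for H3K27ac, 58 of 380 were also called higher for Pol II (background 0.465%), and among those called lower 69 of 160 were also called lower (background 0.402%). The median Pol II change was 0.33 in the first and -1.05 in the second. Of the 28 named regions, 25 were called in the same direction for Pol II, and the exceptions were Serpina12, Il20rb and the distal region at Lrp2bp. Of the 184 testable called regions found in all 6 libraries, 173 changed in the same direction.

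The contrast of KO against WT was also available in cells given LPS, from libraries that share no sample with the untreated ones. The KO libraries were deeper there too, with 23.6 to 47.5 M tags against 13.5 to 20.9 M in WT at 1 h. At 18 h they held 31.3 to 55.4 M against 15.0 to 31.1 M. The part of depth in the counts below was not tested. At 1 h, 680 of the called regions were testable, 526 changed in the same direction and 124 were called in the same direction, with none called the other way (background 0.719% of 38103 regions). By direction, 53 of 455 regions called higher were called higher again (background 0.441%), and 71 of 225 called lower were called lower again (background 0.278%). At 18 h, 547 were testable, 476 changed in the same direction and 130 were called in the same direction, again with none the other way (background 0.614% of 34363 regions). These were 55 of 353 called higher (background 0.247%) and 75 of 194 called lower (background 0.367%). KO replicate 1 at 1 h and KO replicate 1 at 18 h stood apart from the other replicates of their groups. Without the former, 8357 of 37391 regions were called at 1 h, with 293 of the untreated calls in the same direction and 59 in the opposite one. Without the latter, 611 were called at 18 h, with 226 in the same direction and 1 in the opposite one. Leaving out any other library lowered the number called in the same direction to 17 to 29 at 1 h and to 41 to 71 at 18 h. With a replicate block it was 18 at 1 h and 56 at 18 h.

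The named regions differed in how their values ran over time. At Trim12a, WT held 664 to 710 tags at 1 h and 962 to 1052 at 18 h, against 260 to 293 before LPS, while every KO library was listed at 0. Ifi206 rose in WT to 249 to 269 tags at 1 h and 709 to 778 at 18 h, and KO was listed at 0 at 1 h and at 30.5 to 85.5 tags at 18 h. Cd5l kept its gap, with 42.9 to 45.8 tags in KO and 321 to 331 in WT at 1 h, and 9.26 to 30.6 against 422 to 471 at 18 h. The Gfra2 region was found in 1 of the 12 libraries from LPS-treated cells, KO replicate 1 at 1 h (21.4 tags), and could not be tested there. At S100a8 the KO libraries held 47.0, 89.3 and 83.2 tags at 1 h and every WT library held less, though the difference missed the threshold (limma adjusted p = 0.0508), and the groups did not differ past the threshold at 18 h (limma adjusted p = 0.426).

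**Figure D4:**
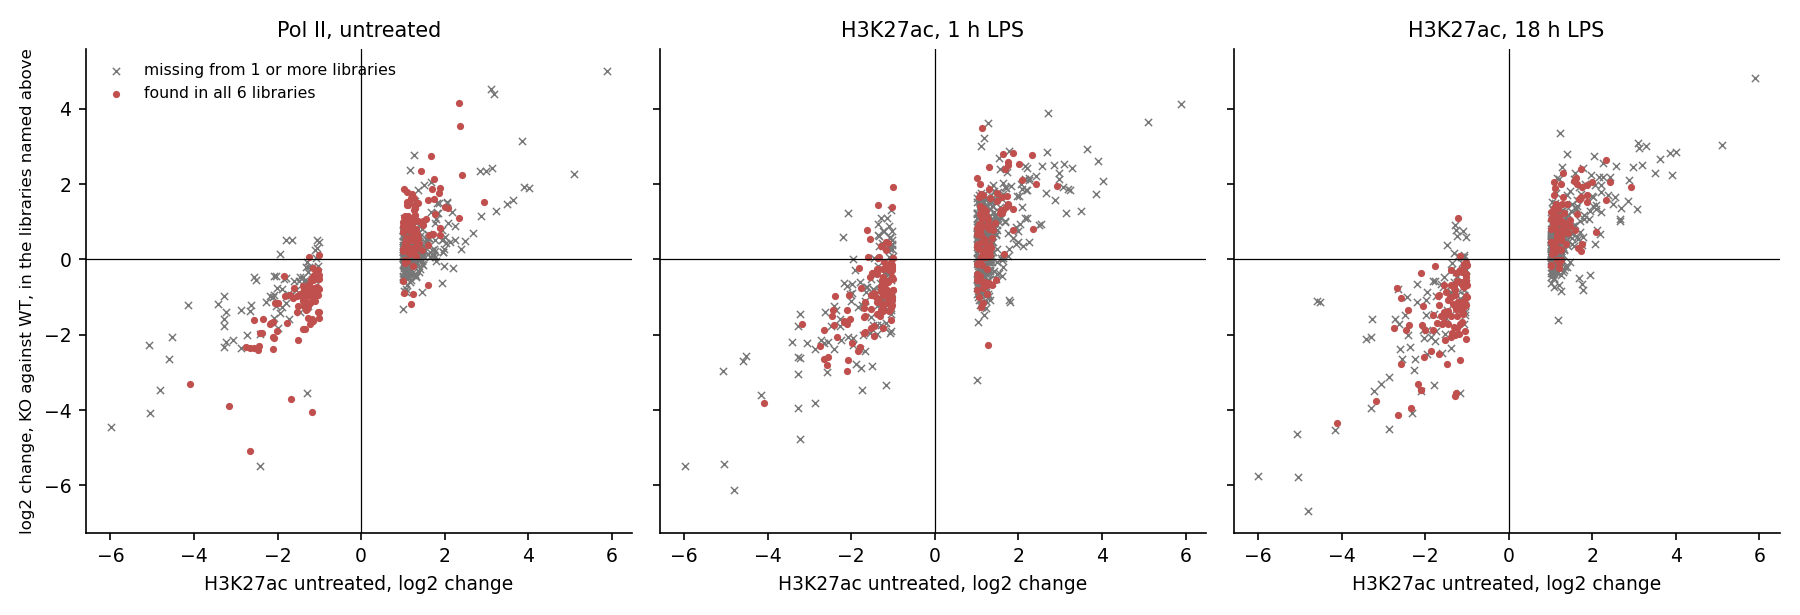
For the called regions that could be tested, the log2 change of untreated H3K27ac (x axis) is set against that of Pol II in untreated cells and of H3K27ac after 1 and 18 h of LPS (y axes); crosses are regions missing from some untreated H3K27ac library and red points regions found in all 6. Most points lay in the quadrants of equal direction (457 of 540, 526 of 680 and 476 of 547), and no point near x = 0 appears because a call needed a 2-fold change.

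Inflammatory and other pathways were read at gene starts, as the H3K27ac within 2500 bp of each start. Of 11817 gene starts tested, 1881 (15.9%) passed a limma adjusted p of 0.05, 1441 higher in KO (12.2%) and 440 lower (3.72%), and 75 (0.635%) also exceeded 2-fold, 49 higher and 26 lower. Some of these 75 were listed at 0 in every library of 1 genotype and entered the test through the other. The median over all gene starts was 0.06. After each library was centred on its median, 563 passed higher and 692 lower, so the balance of direction rested on the scaling. In the fit on all 18 H3K27ac libraries 91 gene starts passed, and leaving out KO replicate 1, 2 or 3 left 616, 682 and 763. Of the listed genes called below, only Atf5 (limma adjusted p = 0.0065) also passed in the fit on all 18 libraries, leaving aside Epor, which is listed at 0 in WT. The gene lists below were chosen with earlier results of these data known, and their counts are read beside those backgrounds. No listed gene of inflammation or metabolism was called past 2-fold.

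Of the 3 NR4A receptors, none passed the test at its annotated start, which for Nr4a1 is the upstream one. The region over the downstream Nr4a1 starts had a log2 change of -0.51 (limma adjusted p = 0.0354). Nr4a2 had a log2 change of 0.06 and Nr4a3 of 0.20 (limma adjusted p = 0.071). Of 15 AP-1 genes, 3 passed higher and 1 lower, with a list median of 0.02. Atf5, which encodes a basic leucine zipper factor of the stress response, held 328, 321 and 336 tags in KO and 446, 593 and 606 in WT. It fell by 0.71 on the log2 scale (limma adjusted p = 0.00558), and its call held after centring. Jund rose by 0.26 (limma adjusted p = 0.0104), with 628, 641 and 661 tags in KO and 517, 531 and 555 in WT. Batf2 and Fosl2 rose by 0.21 and 0.18 (limma adjusted p = 0.0187 and 0.0472), and both lost the call after centring. Jun, Junb and Fos, the immediate early members, had log2 changes of 0.01, 0.10 and 0.02 and did not pass.

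Of 10 NF-kB subunits and inhibitors, Nfkb1 alone passed, and it fell. Nfkb1 encodes p105, the precursor of the p50 subunit, and its start held 341, 331 and 335 tags in KO and 445, 481 and 495 in WT (log2 change -0.48, limma adjusted p = 0.00122, and 0.166 in the fit on all 18 libraries). Of 13 cytokine and chemokine genes tested, 1 rose and 2 fell, and the list had the lowest median of the inflammatory lists, -0.36. Ccl2, the attractant of monocytes, held 119.8, 114 and 121 tags in KO and 172, 175 and 164 in WT (log2 change -0.49, limma adjusted p = 0.00166, and 0.0947 in the fit on all 18 libraries). The anti-inflammatory Il10 held 158, 152 and 159.8 against 220.0, 194 and 213 (log2 change -0.39, limma adjusted p = 0.00571, and 0.236 in the fit on all 18 libraries). Il1a held 66.3, 81.7 and 86.1 against 55.2, 59.8 and 60.1 (log2 change 0.36, limma adjusted p = 0.042), and lost its call after centring, when 4 genes of the list were lower. Cxcl2 had a WT library far from the others, with 129, 396 and 104 tags against 92.5, 66.8 and 73.3 in KO (limma adjusted p = 0.0979). Il12b and Nos2, which are switched on by LPS, were at 0 in most libraries and not tested, and Tnf, Il1b and Il6 did not pass (log2 changes of -0.08, -0.07 and -0.11).

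Of 15 interferon-response genes, only Usp18, which encodes an ISG15 protease that damps interferon signalling, passed, with a log2 change of -0.33 (limma adjusted p = 0.0332). Of 11 genes of Toll-like receptor signalling, the kinase gene Irak4 rose by 0.17 (limma adjusted p = 0.0399; lost after centring) and the RNA sensor Tlr7 had a log2 change of -0.23 (limma adjusted p = 0.0183). Of 8 macrophage lineage factors, 3 rose: Klf4 with 411, 388 and 400 tags in KO and 312, 327 and 322 in WT (log2 change 0.31, limma adjusted p = 0.00489), Cebpa by 0.22 and Mitf by 0.21. After centring Klf4 alone stayed higher and 1 other gene of the list was lower, and in the fit on all 18 libraries Klf4 missed the threshold too (limma adjusted p = 0.315). Of 12 lipid genes tested, the sterol exporter Abcg1 rose by 0.25 (lost after centring) and the scavenger receptor Msr1 had a log2 change of -0.36 (limma adjusted p = 0.0139). Of 12 citric acid cycle genes, Idh2 and Fh1 rose by 0.27 and 0.17 (both lost after centring). Among the genes of H3K27 acetylation, Crebbp, which encodes CBP, rose by 0.35 (limma adjusted p = 0.0114), with 341, 364 and 356 tags in KO and 254, 271 and 301 in WT. Among 8 reference genes, B2m rose by 0.20, and this call was lost after centring. Igsf3, listed singly, had no H3K27ac region within 20 kb in any of the 6 libraries.

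**Figure D5:**
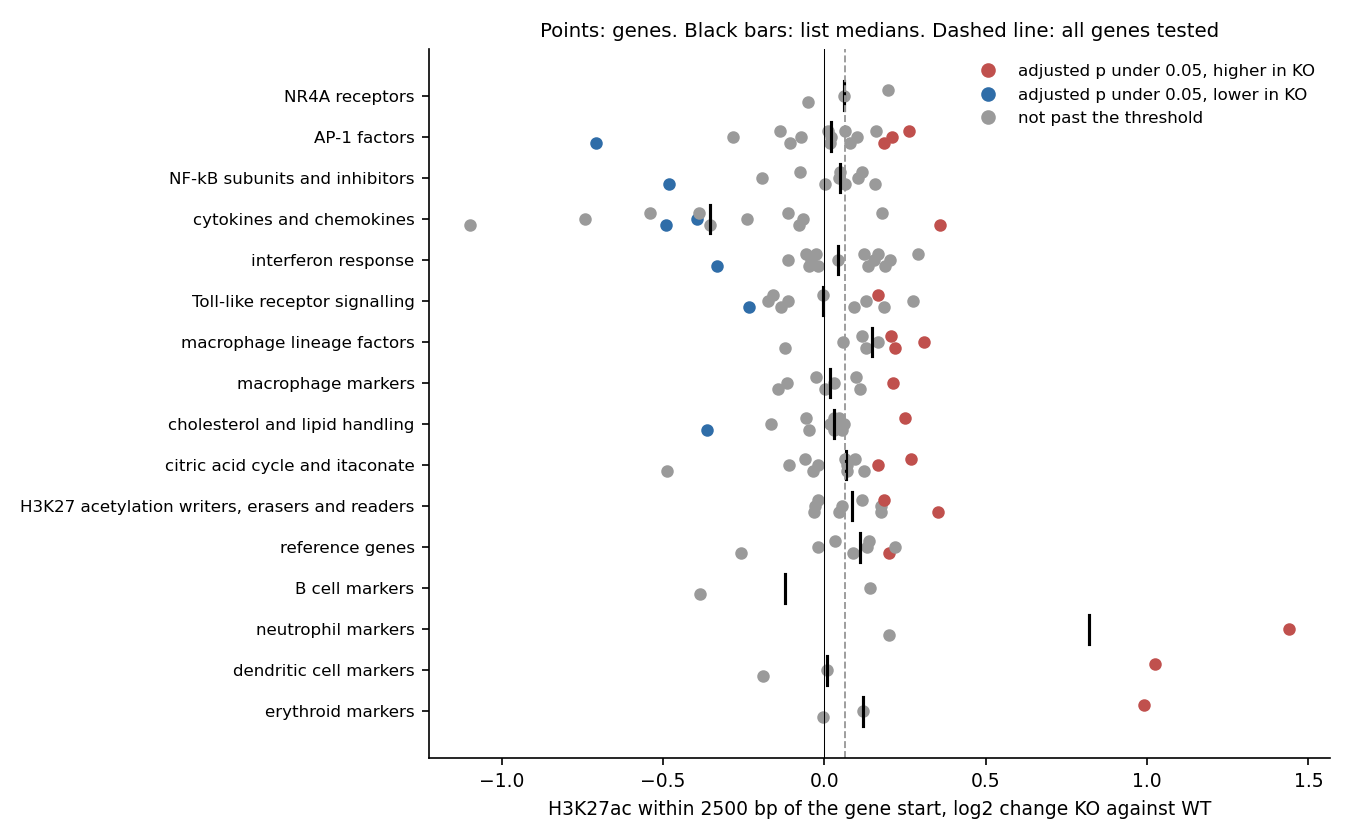
Each point is a tested gene of a list (rows), placed by its log2 change of H3K27ac at the gene start in KO against WT (x axis); red and blue points passed an adjusted p of 0.05 over all genes and grey ones did not. The list median (black bar) farthest below that of all genes (dashed line, 0.06) was that of the cytokines and chemokines (-0.36), the neutrophil median rests on 2 tested genes, and the red points of the dendritic cell and erythroid lists are genes listed at 0 in WT.

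The 75 gene starts that exceeded 2-fold included members of the Ifi200 and Trim families, named here after their values were seen. Of the Ifi200 cluster, Ifi202b and Ifi214 were found in KO and listed at 0 in WT, and Ifi206 and Ifi213 the reverse. No fold or p is given for genes listed at 0 in 1 genotype. Ifi213 held only 21.4, 29.6 and 20.8 tags in WT. Ifi211 was higher in KO by 1.35 on the log2 scale (limma adjusted p = 0.0011). Ifi209 had a log2 change of -1.09 (limma adjusted p = 3.33e-05). Of the Trim genes of chromosome 7, Trim12a, Trim30d and Trim5 were lower in KO, with Trim30d at 6.86, 6.23 and 0 tags in KO and 125, 136 and 114 in WT. These are families of close copies within a few Mb, where the division of reads between copies is uncertain. Per2, a repressor of the circadian clock, rose from 41.5, 25.3 and 30.4 tags in WT to 92.3, 92.3 and 90.5 in KO (log2 change 1.28, limma adjusted p = 0.00122), and missed the threshold in the fit on all 18 libraries (limma adjusted p = 0.0945).

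The identity of the cells was read from marker genes at their starts. The 8 macrophage markers summed to 6210 to 6519 tags in KO and 5927 to 6564 in WT, with overlap, and 1 of them, the phagocytic receptor gene Mertk, rose by 0.21 (lost after centring). All 5 T cell markers and all 5 fibroblast markers were at 0 in all 6 libraries. B cell markers summed to 176 to 251 tags in KO and 270.2 to 294 in WT, with Cd79a and Pax5 at 0 and nearly all tags at Ms4a1. Neutrophil markers summed to 162 to 179 tags in KO and 72.4 to 86.4 in WT without overlap, with S100a9, Ly6g and Mpo at 0 in every library, so the sum moved with S100a8. Dendritic cell markers summed to 497 to 532 and 522 to 573 tags and erythroid markers to 54.6 to 73.8 and 48.8 to 60.0, both with overlap, and in each of these lists 1 gene (Zbtb46 and Epor) was found in all KO libraries at under 14 tags and listed at 0 in WT. In bulk chromatin, a mark in fewer cells and a weaker mark per cell cannot be told apart.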

How the data were processed

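H3K27ac ChIP-seq of untreated KO and WT macrophages (3 libraries each, 21.4 to 38.8 M tags) was analysed. Skewer trimming, HISAT2 2.1.0 alignment to mm10 and HOMER removal of duplicates were done by the authors, who called broad regions with HOMER per library, without input control: windows of 500 bp at a Poisson p of 0.001, stitched under 1000 bp. The deposited signal of a region is its number of tags per 10 M tags. Whole tag numbers could not be recovered, so no count test was run. Genes came from GENCODE vM21 (GRCm38, the assembly of mm10), with 21897 protein-coding genes. Regions were merged on overlap and tags summed per library, with 0 where none was found. A region partly inside a gene window, or a Pol II or LPS-time region partly inside a merged region, was shared out by overlap. The log2(normalized tags + 10) values went into limma 3.58.1 under R 4.3.3 (intensity trend, Benjamini-Hochberg over all features tested). Regions were called at an adjusted p under 0.05 and over 2-fold, gene starts at an adjusted p under 0.05. Only the 6 libraries compared entered a fit. The fit was tested on simulated data. Named regions were chosen for promoter and distal separately and in each direction. Among regions found in all 6 libraries with non-overlapping KO and WT values, the 4 called ones with the largest change were taken. Among regions found in all libraries of 1 genotype and none of the other, the 3 highest were taken. Genes came from 19 lists of 159 genes. Some listed genes are not reported here. The members, lists and tests were chosen with earlier results of these data known. Of 18 genes looked up for promoters, 14 matched the RefSeq entries. Software also included Python 3.11.15, pandas 2.3.3, numpy 2.4.6, data.table (version 1.17.8) and matplotlib 3.10.9.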

Additional observations from a re-analysis of the deposited data

How the results depend on the processing

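The 1109 region calls (89 promoter, 1020 distal) became 1941 (152 and 1789) with a pseudocount of 1, 112 (17 and 95) with a pseudocount of 50, 240 (29 and 211) for regions found in all 6 libraries, 490 (52 and 438) with a region not found set to the floor of its library, 569 (50 and 519) without regions that overlapped an input region, and 21 (5 and 16) with log2 depth as a covariate, where genotype and depth are nearly collinear. With a promoter window of 1000 bp there were 59 promoter calls, and with the starts of all transcripts, chosen after seeing the data, 205. Median centring, quantile normalization, no filter, no trend, merging up to 1000 bp apart, the common density floor and a fit on all 18 H3K27ac libraries gave 811 to 1278 calls. The 16 named regions found in all 6 libraries kept their calls under median centring, quantile normalization, no filter, no trend and the fit on all 18 libraries (merging and the density floor gave no value per named region), but 14 lost them with depth as a covariate (12 of the 16 with a fitted change within 1.5 times of the value without it) and 1 with a pseudocount of 50. Leaving out 1 library gave 960 to 1386 region calls, 77 to 105 promoter and 878 to 1281 distal ones.

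The 1881 gene starts became 91 in the fit on all 18 libraries, in which Atf5 alone of the called genes of inflammation and metabolism stayed called, and 616 to 2087 without 1 library (616, 682 and 763 without KO replicate 1, 2 and 3, and 1169 without WT replicate 2). The 75 gene starts past 2-fold became 116 with a pseudocount of 1, 15 with one of 50 and 43 in the fit on all 18 libraries, and were 59 to 77 without 1 library. The 127 regions called alike for Pol II were 36 with a pseudocount of 50 and 87 to 96 without 1 library. The 124 at 1 h of LPS were 53 with a pseudocount of 50 and 17 to 293 without 1 library (293 without KO replicate 1, 17 to 29 without any other), and the 130 at 18 h were 72 and 41 to 226 (226 without KO replicate 1, 41 to 71 without any other). The difference in regions per library turned from 2786 to -3418 over the common density floor, was 2101 to 3292 without 1 library, and in covered length 6.80 to 11.4 Mb and in share of tags 2.15 to 2.83 percentage points. At the upstream Nr4a1 start the change was -0.143 to 0.058 without 1 library. It turned positive without KO replicate 2 (0.058) and without WT replicate 1 (0.027).

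Same-numbered untreated H3K27ac libraries did not deviate together (r = -0.029, 0.008 and -0.040 over 35399 regions). The libraries of LPS-treated cells were not compared in this way. With a replicate block there were 1120 region calls, 1150 gene starts, and 18 and 56 regions called alike at 1 and 18 h of LPS. Depth limits the weak regions: a region listed at 0 in WT can have held up to 6.55 normalized tags per window there.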
